A study of Mus musculus with 6 samples.

Results

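The genes described here encode the proteins that detect double-stranded RNA and the adaptors that pass the signal on. They are 9 genes given by name, Tlr3, Ticam1, Ddx58, Ifih1, Dhx58, Mavs, Eif2ak2, Adar and Tbk1, of 54446 gene rows in the deposited expression table. All 9 were found by symbol and passed the filter on low values, which left 14748 genes for testing. The corneas came from C57BL/6 mice, wild type and 6 weeks old, and their RNA was sequenced in 3 groups of 2 samples each. Corneas of the first group were unwounded, those of the second were wounded, and in the last group the wounded eye was also injected beneath the conjunctiva with the ribonuclease RNase III, which cleaves RNA duplexes. Wounding removed part of the limbus and stroma together with corneal epithelium. Whether the second group was given a control injection is not stated, nor whether samples came from separate animals, so p-values measure only the spread between these samples.

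Cells read double-stranded RNA in several places. Toll-like receptor 3 (Tlr3) does so inside endosomes and signals through the adaptor TRIF (Ticam1). In the cytosol the helicases RIG-I (Ddx58) and MDA5 (Ifih1) bind it and signal through MAVS on mitochondria, while LGP2 (Dhx58), which lacks their signalling domains, modulates both. Both routes meet at the kinase TBK1, which activates the transcription factor IRF3 and with it type I interferon genes. The kinase PKR (Eif2ak2) stops translation when it binds double-stranded RNA, and ADAR edits adenosine to inosine in such RNA, which keeps a cell's own transcripts from being sensed. Many of these genes are themselves known to be induced by interferon.

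Values are TPM, shares of a library corrected for transcript length, so levels of different genes can be set side by side. TPM keep no sequencing depth, which is unknown here. The number of genes above 0 TPM ran from 16751 in RNase III replicate 1 to 21033. Replicates of a group had Pearson correlations of log2(TPM + 1) across genes from 0.943 to 0.968, and genes are not independent replicates. The second RNase III library correlated at 0.954 with the second wounded one and at 0.943 with its own partner. The epithelial keratin gene Krt12 was abundant in every library, from 11217 to 19636 TPM, and all 11 epithelial markers were measured. In bulk tissue, fewer cells of a type and less RNA per cell cannot be told apart. Dendritic cell and lymphocyte markers were near 0, with summed levels of 0.85 to 1.99 TPM for 6 genes and 0.59 to 3.85 TPM for 10 genes, and none of them passed the filter.

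The members together made up 145 and 141 TPM in the unwounded libraries, 140 and 214 TPM in the wounded libraries and 166 and 254 TPM in the RNase III libraries. Their order differed between the groups. In unwounded corneas Mavs stood highest at 39.2 ± 1.0 TPM (SD, n = 2), followed by Tbk1 at 21.0 ± 1.6, Ddx58 at 18.6 ± 0.5 and Adar at 17.2 ± 1.9 TPM. Eif2ak2 at 13.1 ± 0.5, Ifih1 at 12.8 ± 0.5 and Tlr3 at 10.3 ± 3.8 TPM came next, and Ticam1 at 6.12 ± 0.33 and Dhx58 at 4.94 ± 0.94 TPM were lowest. Among neighbours in that order, the libraries of Ddx58 and Adar overlapped, as did those of Eif2ak2, Ifih1 and Tlr3, and the other neighbours did not overlap. In wounded corneas Dhx58, the lowest gene without a wound, had the highest mean at 32.7 ± 16.7 TPM, and Mavs had 12.9 ± 3.5 TPM, above Tlr3 and Ticam1 alone. Every pair of neighbours in the wounded order overlapped. With RNase III Ddx58 had the highest mean at 34.2 ± 12.5 TPM, and only Ticam1, the lowest at 8.46 ± 3.31 TPM, was apart from its neighbour. Mavs accounted for 27.4% and 27.3% of the summed level of the 9 genes in unwounded, 7.41% and 7.15% in wounded, and 16.1% and 9.48% in RNase III corneas, replicate 1 first.

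**Figure D1:**
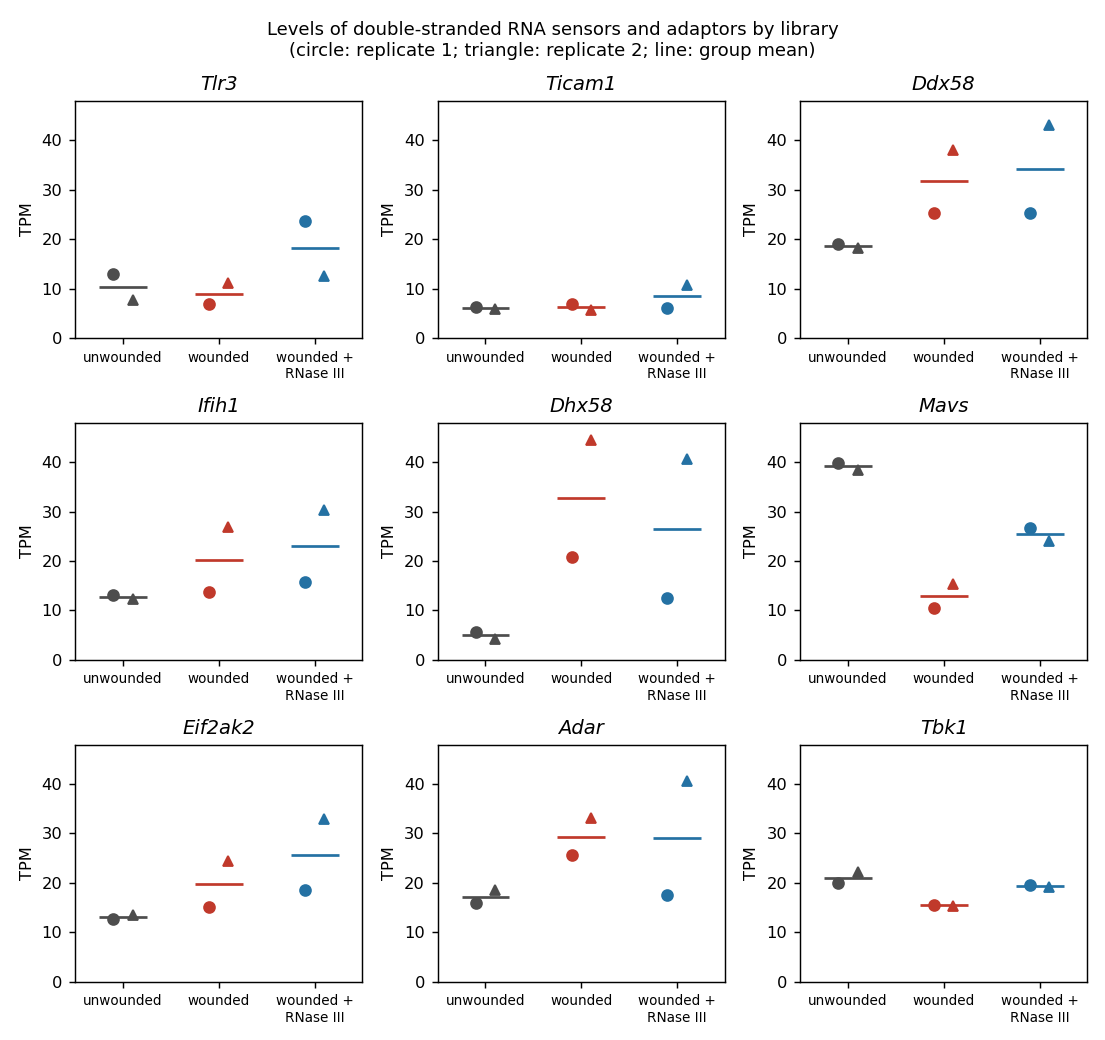
Level of each of the 9 genes in TPM (vertical axis, 0 to 48 in every panel) in the 2 libraries of each group, circles for replicate 1, triangles for replicate 2 and lines for the group mean. Dhx58 went from 5.60 and 4.27 TPM in unwounded to 20.89 and 44.50 TPM in wounded corneas, while Mavs went from 39.88 and 38.44 to 10.41 and 15.31 TPM.

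Between wounded and unwounded corneas a pair of genes of the cytosolic route passed the test, in opposite directions: Dhx58 rose and Mavs fell. Differences between groups were tested with limma across all 14748 genes on log2(TPM + 1), a scale that understates changes of low genes, and called at an adjusted p under 0.05. Of the 9 genes 1 rose and 1 fell, beside 6.12% of all tested genes that rose and 9.83% that fell. Whether the cytosolic route differed from the other genes was not tested. An unadjusted p under 0.05 was found for 2 of 9 and for 36.4% of all tested genes. In 7 of 9 the wounded libraries did not overlap the unwounded ones, a share near the 72.1% of all tested genes for which that held. The median log2 difference of the 9 genes was 0.52, beside -0.26 over all tested genes. Scaling the libraries by median of ratios moved the all-gene median to -0.01 and turned the counts over all genes from 902 higher and 1450 lower into 1525 higher and 1001 lower, so changes can be read against that shift.

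The receptors came first in the cytosolic branch. Dhx58 (ENSMUSG00000017830, GRCm38 chromosome 11, 100694884 to 100704271, minus strand), whose product lacks the signalling domains of the other receptors, had 5.60 and 4.27 TPM without a wound, 20.89 and 44.50 TPM after wounding, and 12.52 and 40.62 TPM where RNase III was given. Both wounded libraries lay above both unwounded libraries, with replicate 2 well above replicate 1. With the wound Dhx58 rose by 2.42 in log2 units, 5.35-fold on TPM + 1 (SE 0.58, limma adjusted p = 0.0402). That call was near the threshold: it was lost without unwounded replicate 1 or 2 (limma adjusted p = 0.146 and 0.227) and without wounded replicate 1 or 2 (adjusted p = 0.121 and 0.13). Neither a fit with no filter on low values nor a fit with no mean-variance trend called it (limma adjusted p = 0.104 and 0.0519). The rise itself ranged from 1.89 to 2.95 over the libraries left out.

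Ddx58, the gene of RIG-I (ENSMUSG00000040296, chromosome 4, 40203773 to 40239828, minus strand), had 18.96 and 18.28 TPM without a wound, 25.21 and 38.14 TPM after wounding, and 25.39 and 43.03 TPM where RNase III was given. All 4 libraries of wounded eyes lay above the unwounded ones, as they did for Dhx58, Ifih1 and Eif2ak2. In either direction, 72.1% of all tested genes had wounded libraries apart from the unwounded ones. For RNase III against unwounded libraries that share was 66%. The share of genes with both was not counted. The wound difference of Ddx58 was 0.71 (SE 0.32, 95% interval -0.06 to 1.47, limma adjusted p = 0.16). After scaling the libraries by median of ratios it was 0.99 and passed (limma adjusted p = 0.0447). Ifih1, the gene of MDA5 (ENSMUSG00000026896, chromosome 2, 62595798 to 62646255, minus strand), had 13.16 and 12.41 TPM without a wound, 13.69 and 26.86 TPM after wounding, and 15.76 and 30.34 TPM where RNase III was given. Replicate 1 of each wounded group stood close to the unwounded level and replicate 2 at more than its own replicate 1 by 1.96-fold and 1.93-fold. The wound difference of Ifih1 was 0.55 (SE 0.41, 95% interval -0.43 to 1.54, limma adjusted p = 0.36).

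Mavs, the adaptor that both signalling receptors need (ENSMUSG00000037523, chromosome 2, 131234063 to 131248025, plus strand), had 39.88 and 38.44 TPM without a wound, 10.41 and 15.31 TPM after wounding, and 26.77 and 24.11 TPM where RNase III was given. The 3 groups did not overlap, with the RNase III libraries between the other groups. The share of all tested genes with that order was not counted. Mavs fell by 1.56 on the log2 scale with the wound (SE 0.24, limma adjusted p = 0.0186), from 39.2 ± 1.0 to 12.9 ± 3.5 TPM (SD, n = 2). Scaled by median of ratios it fell by 1.28 (limma adjusted p = 0.0226). Without unwounded replicate 1 or 2 the size held, at -1.53 and -1.58, though the call was lost (limma adjusted p = 0.121 and 0.171). Without wounded replicate 1 the Mavs difference was -1.30 and its call was lost as well (limma adjusted p = 0.0834).

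Set against Mavs within each library, the receptors stood below it without a wound and above it after wounding. In unwounded corneas Ddx58 stood at 0.475 times the Mavs TPM in both libraries, Ifih1 at 0.330 and 0.323 times, and Dhx58 at 0.140 and 0.111 times. All of them exceeded Mavs in both wounded libraries: Ddx58 at 2.42 and 2.49 times, Ifih1 at 1.32 and 1.75 times, and Dhx58 at 2.01 and 2.91 times. The RNase III libraries were split, with replicate 1 below Mavs for all of them (0.948, 0.589 and 0.468 times) and replicate 2 above (1.78, 1.26 and 1.68 times). These ratios are descriptions and were not tested. All share Mavs, which fell with the wound, so they are not separate observations. Before scaling by median of ratios, neither Ddx58 nor Ifih1 was called with the wound. In wounded replicate 1 Ifih1 had 13.69 TPM, beside 13.16 and 12.41 TPM in unwounded corneas.

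**Figure D2:**
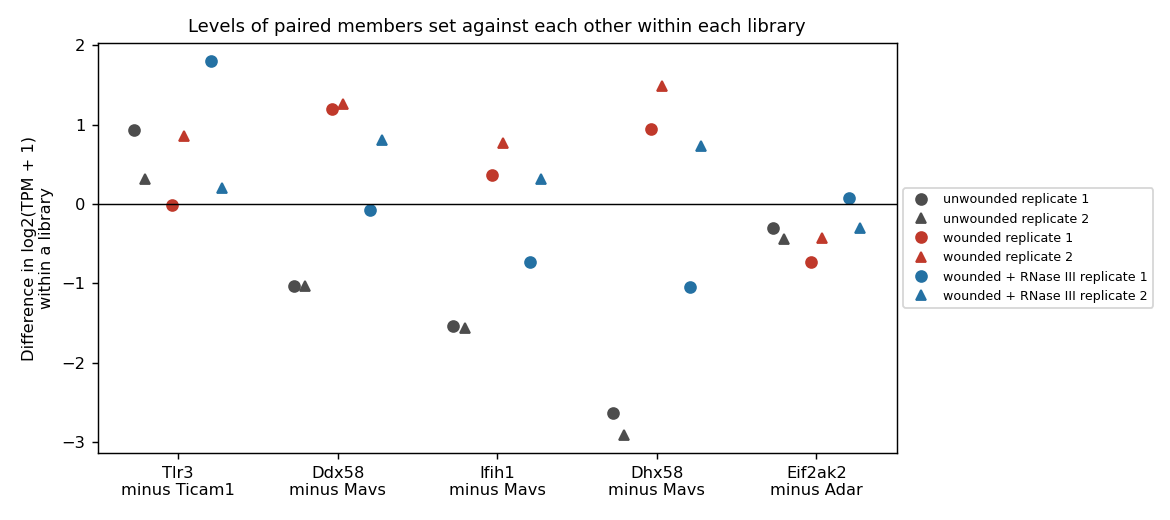
Difference in log2(TPM + 1) between 2 members within each library (vertical axis) for the 5 pairs named on the horizontal axis, grey for unwounded, red for wounded and blue for RNase III, circles for replicate 1 and triangles for replicate 2. Each receptor minus Mavs was below 0 in both unwounded libraries and above 0 in both wounded libraries, and Tlr3 minus Ticam1 ran from -0.01 to 1.80 with the groups overlapping.

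Because the receptor genes and Eif2ak2 are known to respond to interferon, the promoters were read for the interferon response element. RefSeq windows on GRCm38.p6, from 250 bases before a start site to 50 after it, matched 8 of the 9 genes by symbol, all but Dhx58, in 10 windows. The core GAAANNGAAA, searched on both strands, was found in 3 of these 8 genes, Ddx58, Ifih1 and Eif2ak2, and in 3.98% of all 26994 genes with a window. It had no match in the windows of Mavs, Tlr3, Ticam1, Adar and Tbk1, which says only that these letters are not there. The windows of the 3 genes with a match and of Mavs, the gene that fell, are given 5′ to 3′ along the gene, with the core in capitals.
Ddx58: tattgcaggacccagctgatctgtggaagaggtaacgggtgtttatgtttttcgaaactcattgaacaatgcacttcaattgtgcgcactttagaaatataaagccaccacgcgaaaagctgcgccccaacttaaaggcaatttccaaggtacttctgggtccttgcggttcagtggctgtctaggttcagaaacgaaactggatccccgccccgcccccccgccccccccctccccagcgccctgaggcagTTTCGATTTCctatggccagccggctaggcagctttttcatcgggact
Ifih1: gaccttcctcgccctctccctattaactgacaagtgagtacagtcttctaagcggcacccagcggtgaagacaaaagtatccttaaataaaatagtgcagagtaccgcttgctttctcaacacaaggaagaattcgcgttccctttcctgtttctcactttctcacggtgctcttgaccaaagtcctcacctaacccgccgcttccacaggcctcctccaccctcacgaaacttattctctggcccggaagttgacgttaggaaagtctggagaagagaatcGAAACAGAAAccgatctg
Eif2ak2: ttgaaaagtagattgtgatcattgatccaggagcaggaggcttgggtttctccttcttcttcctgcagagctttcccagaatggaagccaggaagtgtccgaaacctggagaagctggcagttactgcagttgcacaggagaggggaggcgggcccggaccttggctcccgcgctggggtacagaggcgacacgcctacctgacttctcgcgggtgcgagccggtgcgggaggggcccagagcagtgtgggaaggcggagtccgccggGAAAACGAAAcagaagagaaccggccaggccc
Mavs: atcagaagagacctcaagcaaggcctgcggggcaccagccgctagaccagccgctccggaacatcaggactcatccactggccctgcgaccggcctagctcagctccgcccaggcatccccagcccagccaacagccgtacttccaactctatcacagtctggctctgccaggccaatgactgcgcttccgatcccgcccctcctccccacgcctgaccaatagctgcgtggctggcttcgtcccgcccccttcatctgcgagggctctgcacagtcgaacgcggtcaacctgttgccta
The Ddx58 window is chr4:40239776-40240075, the Ifih1 window chr2:62646206-62646505 and the Eif2ak2 window chr17:78882523-78882822, all on the minus strand. The Mavs window is chr2:131233813-131234112 on the plus strand. In all 3 genes the core lies after the RefSeq start site, with its first base at position 3 in Ddx58, 33 in Ifih1 and 19 in Eif2ak2. The Ddx58 core reads on the opposite strand to the gene. Annotated starts differ: in GENCODE release M21 a transcript of Ifih1 begins at position 45 of its window, so the core lies before that start. The Tlr3 window, chr8:45410331-45410630 on the minus strand, lies wholly inside the GENCODE gene, which starts at 45411080. Some transcripts of Tlr3 begin within the window, the earliest start being at position -239. Bases before the gene start were not searched, so the lack of a match in Tlr3 does not cover them. A second motif, the gamma-activated site TTCNNNGAA, which reads the same on both strands, was found in the Eif2ak2 window at position -178 and in a downstream Adar window at position 23, thus in 2 of the 8 genes, and in 9.55% of all genes with a window. It overlapped no core match.

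The endosomal receptor and its adaptor showed no called difference with the wound. Tlr3 (ENSMUSG00000031639, minus strand of chromosome 8, 45395665 to 45411080) measured 13.02 and 7.59 TPM without a wound, 6.91 and 11.06 TPM after wounding, and 23.72 and 12.63 TPM where RNase III was given. Replicates differed by more than the group means of unwounded and wounded corneas did. The 95% interval of the Tlr3 wound difference ran from -1.16 to 0.83, and its value of -0.17 became 0.09 with median-of-ratios scaling (limma adjusted p = 0.791 and 0.899). Ticam1, the gene of TRIF (ENSMUSG00000047123, chromosome 17, 56269319 to 56276786, minus strand), had 6.35 and 5.89 TPM without a wound, 6.95 and 5.68 TPM after wounding, and 6.12 and 10.80 TPM where RNase III was given. RNase III replicate 2 stood above the other 5 libraries, which lay within 5.68 to 6.95 TPM. The wound difference of Ticam1 was 0.03 (SE 0.33, 95% interval -0.76 to 0.83, limma adjusted p = 0.948). Within libraries the TPM of Tlr3 over Ticam1 was 2.05 and 1.29 in unwounded, 0.994 and 1.95 in wounded and 3.88 and 1.17 in RNase III corneas, so the groups overlapped.

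Eif2ak2 and Adar, the kinase that stops translation and the editing enzyme, had higher values in both wounded libraries than in both unwounded libraries, without passing the test. Eif2ak2 (ENSMUSG00000024079, chromosome 17, 78852564 to 78882573, minus strand) had 12.71 and 13.42 TPM without a wound, 15.11 and 24.35 TPM after wounding, and 18.49 and 32.87 TPM where RNase III was given. All 4 libraries of wounded eyes exceeded the unwounded ones, as for Dhx58, Ddx58 and Ifih1. How many of all tested genes had that order was not counted. Replicate 2 was higher in both wounded groups, as for 64.4% of all tested genes in wounded and 67.7% in RNase III corneas. The wound difference of Eif2ak2 was 0.52 (SE 0.35, 95% interval -0.31 to 1.36, limma adjusted p = 0.311). Adar (ENSMUSG00000027951, chromosome 3, 89715022 to 89753446, plus strand) had 15.88 and 18.51 TPM without a wound, 25.64 and 33.08 TPM after wounding, and 17.47 and 40.70 TPM where RNase III was given. RNase III replicate 1 lay within the unwounded range and replicate 2 above every other library. The wound difference of Adar was 0.73 (SE 0.39, 95% interval -0.21 to 1.67, limma adjusted p = 0.219). The TPM of Eif2ak2 over Adar was 0.800 and 0.725 in unwounded, 0.589 and 0.736 in wounded, and 1.06 and 0.808 in RNase III corneas. RNase III replicate 2 at 0.808 was nearly level with unwounded replicate 1 at 0.800. As differences in log2(TPM + 1) both were -0.30. These ratios were not tested. The table gives 1 value per gene, so the constitutive and the interferon-inducible Adar transcripts were not told apart.

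Tbk1, the kinase shared by both routes (ENSMUSG00000020115, chromosome 10, 121546455 to 121586787, minus strand), varied least of the 9 genes over the 6 libraries, with a highest level 1.45 times its lowest. It had 19.92 and 22.17 TPM without a wound, 15.62 and 15.29 TPM after wounding, and 19.60 and 19.24 TPM where RNase III was given. In TPM the 3 groups did not overlap, though RNase III replicate 1 at 19.60 TPM came close to unwounded replicate 1 at 19.92 TPM. How many of all tested genes had 3 separate groups was not counted. Its wound difference was -0.42 (SE 0.21, 95% interval -0.91 to 0.07, limma adjusted p = 0.187). Scaling by median of ratios brought it to -0.14.

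**Figure D3:**
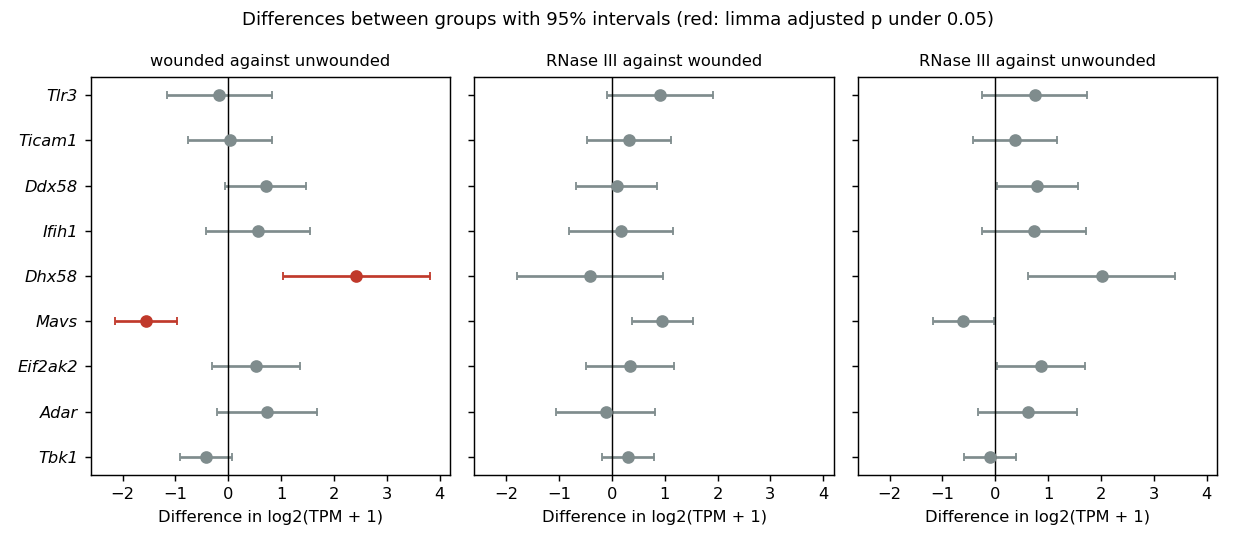
Difference in log2(TPM + 1) for each of the 9 genes (horizontal axis) in the 3 comparisons, with 95% intervals from limma, in red where the adjusted p was under 0.05. In the wound comparison Dhx58 at 2.42 and Mavs at -1.56 are red, and no gene is red in either comparison with RNase III.

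The enzyme was set against the wound alone in the second comparison, and no sensor or adaptor passed the test. limma called 0 of 9, as it called 0% of all 14748 genes. An unadjusted p under 0.05 was found for 1 of 9, Mavs, and for 12.5% of all tested genes. Mavs was higher with RNase III by 0.95 (SE 0.24, 95% interval 0.37 to 1.53, limma adjusted p = 0.302). Its level was 25.4 ± 1.9 TPM with the enzyme and 12.9 ± 3.5 TPM without it (SD, n = 2). Tlr3 was higher by 0.91 (SE 0.42, 95% interval -0.08 to 1.90, limma adjusted p = 0.426), by 0.48 without RNase III replicate 1 and by 1.34 without replicate 2. The median log2 difference was 0.31, beside 0.09 over all tested genes. Groups did not overlap for 3 of 9 genes, Tlr3, Mavs and Tbk1, all higher with RNase III, beside 40.2% of all tested genes. The Tbk1 difference was 0.31 (95% interval -0.18 to 0.80, limma adjusted p = 0.558). Ddx58 at 0.09 (95% interval -0.67 to 0.85), Ifih1 at 0.18 (-0.80 to 1.16), Dhx58 at -0.41 (-1.80 to 0.98), Adar at -0.12 (-1.06 to 0.82), Eif2ak2 at 0.35 (-0.49 to 1.18) and Ticam1 at 0.33 (-0.46 to 1.12) had overlapping groups, with limma adjusted p from 0.699 to 0.927. Each of these 6 changed sign when some library was left out, and Ddx58 also changed sign to -0.03 with median-of-ratios scaling.

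RNase III against unwounded corneas shares its libraries with the other comparisons, so the values stand beside them and are not separate support. None of the 9 genes passed (4.72% of all tested genes were higher and 4.58% lower). An unadjusted p under 0.05 was found for 4 of 9, Dhx58, Ddx58, Eif2ak2 and Mavs, and for 34.4% of all tested genes. Dhx58 was higher by 2.01 (SE 0.58, 95% interval 0.62 to 3.40, limma adjusted p = 0.0719). Scaled by median of ratios it passed, at 2.14 (limma adjusted p = 0.0465). Leaving out RNase III replicate 1 it passed at 2.82 (adjusted p = 0.0478). Eif2ak2 was higher by 0.87 and Ddx58 by 0.80, and Mavs had -0.60 (limma adjusted p = 0.134, 0.133 and 0.133). Tlr3 at 0.74, Ifih1 at 0.73, Adar at 0.61, Ticam1 at 0.37 and Tbk1 at -0.11 had limma adjusted p from 0.247 to 0.736, and the Tbk1 value became 0.05 with median-of-ratios scaling. The median was 0.73, beside -0.16 over all tested genes, and groups did not overlap for 6 of 9, beside 66% of all tested genes.

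Replicates of the wounded groups differed widely in some of these genes. In wounded corneas 7 of 9 genes were higher in replicate 2, as were 64.4% of all tested genes, with median log2 differences of 0.58 and 0.16. With RNase III 6 of 9 were higher in replicate 2, a share near the 67.7% of all tested genes, with medians of 0.74 and 0.25. In unwounded corneas 3 of 9 were higher in replicate 2, beside 60.1% of all tested genes, with medians of -0.05 and 0.07. Dhx58 had the widest spread, with replicate 2 at 2.13 times replicate 1 in wounded and 3.24 times in RNase III corneas, and Adar followed with RNase III at 2.33 times. Tlr3 went the other way with RNase III, at 0.533 times, as did Mavs at 0.901 times, and Tbk1 had 0.979 and 0.982 times in these groups. The labels do not say that replicate numbers pair samples between the groups.

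**Figure D4:**
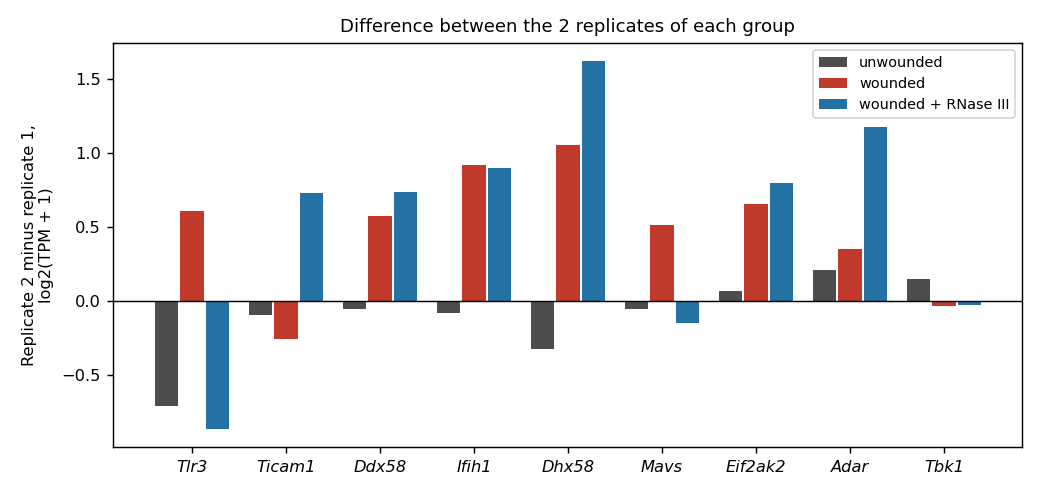
Replicate 2 minus replicate 1 in log2(TPM + 1) (vertical axis, bars from 0) for each of the 9 genes, grey for unwounded, red for wounded and blue for RNase III. Dhx58 had 1.06 in wounded and 1.62 in RNase III corneas, whereas Tlr3 had -0.86 with RNase III and Tbk1 stayed within -0.03 to 0.15.

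Markers of other cells moved between the same groups. Of 12 monocyte and macrophage markers 6 rose with the wound, and their summed level was 131 to 218 TPM in unwounded, 698 to 1365 TPM in wounded and 253 to 521 TPM in RNase III corneas. Cd14 and Lyz2 made up much of the sums after wounding, and Cd14 alone was at 662 and 113 TPM in the wounded libraries. In RNase III against unwounded corneas 2 of the 12 rose and none fell, but 5 of 12 had values above 0 and the median log2 difference was -0.61. Of 7 tested neutrophil markers of 9 listed, 4 rose with the wound, and the granule genes Elane and Mpo were listed at 0 in every library. Neutrophil sums were 65.5 and 45.5 TPM in unwounded and 9085 and 490 TPM in wounded corneas, replicate 1 first. With RNase III they were 1253 and 1426 TPM. S100a9 alone was at 6352 and 297 TPM in the wounded libraries. Stromal keratocyte markers fell in 2 of 8 cases with the wound, with summed levels of 5546 to 7072, 3722 to 4198 and 960 to 1768 TPM. In RNase III against unwounded corneas 5 of these 8 fell. Epithelial markers rose in 2 and fell in 3 of 11 cases with the wound, with sums between 39273 and 50602 TPM over all libraries. Krt14 and Epcam rose while Pax6, Upk1b and Ehf fell, so the sums hide opposite changes of single genes. Krt14 alone went from 540 and 425 TPM without a wound to 13240 and 9970 TPM after wounding. The 4 endothelial markers summed to 296 to 305, 129 to 249 and 132 to 200 TPM, and 5 vessel markers to 23.0 to 29.4, 13.8 to 22.7 and 3.84 to 18.0 TPM. Lens markers were uneven between libraries, with 2 of 5 tested rising with the wound. They summed to 5.41 and 7.31 TPM in unwounded and 54.5 and 221 TPM in wounded corneas, replicate 1 first. With RNase III the lens sums were 48.5 and 3160 TPM. Replicate 2 had the higher sum in both wounded groups, though Cryba4 had 37.46 and 30.54 TPM in wounded corneas. Of all tested genes, 64.4% in wounded and 67.7% in RNase III corneas were higher in replicate 2. In RNase III against wounded corneas limma called none of these markers. Its unadjusted p was under 0.05 for 8 of 12 monocyte and macrophage, 6 of 8 keratocyte and 2 of 11 epithelial markers. It was so for none of the other tested markers, beside 12.5% of all tested genes. Median log2 differences of these 3 lists were -1.495, -1.759 and 0.23, beside 0.09 over all tested genes. The part of the cell mix in the differences of the sensors was not tested.

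Lists of other genes of these pathways are set beside the 6.12% of all tested genes that rose and the 9.83% that fell with the wound. Of 11 tested genes of TLR3 and TRIF signalling 3 rose with the wound and none fell (median log2 difference 0.17, beside -0.26 over all tested genes). These were Ctss and Ctsl, cathepsin genes of endosomes and lysosomes, by 2.04 and 0.87 (limma adjusted p = 0.0104 and 0.0403), and Tradd, a death domain adaptor, by 0.79 (adjusted p = 0.0458). Ctss had 35.43 and 30.49 TPM without a wound, 124.29 and 154.70 TPM after wounding, and 42.91 and 60.93 TPM where RNase III was given. Unc93b1, which carries Tlr3 to endosomes, had -0.21 (limma adjusted p = 0.671).

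Among 20 tested regulators of the RIG-I-like receptors and Mavs, 1 rose and 3 fell with the wound (median 0.05). Itch, a ubiquitin ligase known to target MAVS for degradation, fell by 1.61 (limma adjusted p = 0.0137), from 35.28 and 41.21 TPM to 10.87 and 12.89 TPM, and had 17.85 and 19.23 TPM with RNase III. Cyld, a deubiquitinase that restrains RIG-I, fell by 1.25 (limma adjusted p = 0.0228), and Mfn2, a mitochondrial fusion protein that binds MAVS, by 0.84 (adjusted p = 0.0352). Itch, Cyld and Mfn2, named because they passed the wound test, each had their RNase III libraries between the other groups, as Mavs did. The share of all tested genes with that order was not counted. None of them was called in RNase III against wounded corneas (limma adjusted p = 0.366, 0.363 and 0.419). Ywhah, a phosphoprotein-binding adaptor gene, rose by 1.15 (limma adjusted p = 0.0191), and by 1.61 in RNase III against unwounded corneas (adjusted p = 0.0122), a comparison in which Itch also fell (adjusted p = 0.0415).

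Of 21 other genes of proteins that bind double-stranded RNA, 2 rose and 1 fell with the wound (median -0.22). Zbp1, a sensor of nucleic acids in the left-handed form, had 9.14 and 7.31 TPM without a wound, 96.56 and 197.23 TPM after wounding, and 37.03 and 215.21 TPM where RNase III was given. Replicate 2 was the higher library in both wounded groups, as for 64.4% of all tested genes in wounded and 67.7% in RNase III corneas. Zbp1 rose by 3.92 with the wound (SE 0.77, limma adjusted p = 0.0273). The helicase gene Ddx21 rose by 0.97 (limma adjusted p = 0.0412), and Zfr, a zinc finger RNA-binding protein gene, fell by 1.21 (adjusted p = 0.0301). In RNase III against unwounded corneas Zbp1 rose by 3.30 and Ddx21 by 1.19 (limma adjusted p = 0.0478 and 0.0354). Of 17 eIF2 kinase and stress response genes Atf4, a transcription factor translated under stress, rose with the wound, by 0.76 (limma adjusted p = 0.0475). In RNase III against unwounded corneas Eif2s2, a subunit of the factor that PKR acts on, rose by 0.73 (limma adjusted p = 0.0499), as did Tradd of the endosomal route by 0.86 (adjusted p = 0.0495).

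Downstream of the kinase, limma called 0 of 9 partners of Tbk1 and interferon regulatory factors in the wound comparison (3 of 9 had an unadjusted p under 0.05, a share near the 36.4% of all tested genes). Irf7, the interferon-inducible factor, had 72.03 and 55.52 TPM without a wound, 154.30 and 303.22 TPM after wounding, and 93.15 and 265.61 TPM where RNase III was given. Its wound difference was 1.76 (SE 0.53, limma adjusted p = 0.0651). Irf3, which Tbk1 activates by phosphorylation, was at 36.72 to 59.43 TPM throughout, with a wound difference of 0.50 (limma adjusted p = 0.12). Ifnb1, the interferon beta gene named in the series title (ENSMUSG00000048806, chromosome 4, 88522025 to 88522774, minus strand), was listed at 0 TPM in all 6 libraries. Of the other 10 type I and III interferon genes looked up, 8 were also listed at 0 in every library, and Ifnl2 and Ifne each had 0.15 TPM in 1 library. In RNase III against wounded corneas limma called 0 genes of any of these pathway lists, and an unadjusted p under 0.05 was found for 2 of 11 genes of TLR3 and TRIF signalling, 3 of 20 receptor regulators and 3 of 21 binding proteins, and for 0 of 9 partners of Tbk1 and 0 of 17 eIF2 genes, beside 12.5% of all tested genes.

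To see which genes followed each member, profiles over the 6 libraries were centred on each gene's mean and compared by the root mean square difference of log2(TPM + 1) among 13263 genes. This describes these 6 libraries, which share 1 scaling per library. Mavs lay nearest to Cgnl1, Bnip3l and Cobll1 (0.04, 0.04 and 0.08), and Cgnl1 had 51.88 and 51.16 TPM without a wound, 13.49 and 18.87 TPM after wounding, and 33.33 and 31.48 TPM where RNase III was given. Dhx58 lay nearest to Ifit3b, Sp100 and Trim30a (0.13, 0.14 and 0.26), with Ifit3b at 28.68 and 27.48, 100.73 and 185.29, and 55.43 and 192.44 TPM. Ddx58, Ifih1 and Eif2ak2 lay close to each other: Eif2ak2 was the 9th nearest of all genes to Ddx58 and the 4th nearest to Ifih1, at 0.12 each. Adar was the 94th nearest to Ddx58, at 0.19, and lay nearest to Tapbp (0.08). Tlr3 was far from the other members, at 0.53 to 1.29, and nearest to Cenpk (0.15). Mavs and Dhx58 were the most distant pair, at 1.74. Ticam1 lay nearest to Ccdc97 (0.03) and Tbk1 to Lemd3 (0.03), while Pml was nearest to Ddx58, Nmi to Ifih1 and Haspin to Eif2ak2 (0.08, 0.08 and 0.07).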

How the data were processed

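Deposited by the authors was a single table of TPM for 6 samples and 54446 Ensembl genes, with columns of equal sum. The submitters' processing notes name STAR, RSEM, DESeq2 and the build mm10 without saying what each was used for; the annotation, the strand setting and any filter are not given. Because TPM are relative to length and to a library's total, abundant transcripts lower the rest, and depth cannot be read from them. Symbols were found for 54409 identifiers. Without a stated strand, antisense genes overlapping Tlr3, Dhx58, Eif2ak2 and Adar cannot be told apart from them; each of these had at most 1.56 TPM.

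Groups came from the sample titles. Genes reaching 1 TPM in at least 2 libraries were tested as log2(TPM + 1) with limma 3.58.1 in R 4.3.3, fitting the means of all 3 groups at once with a mean-variance trend (3 residual degrees of freedom, 3.6 prior), and p-values were two-sided and adjusted by Benjamini-Hochberg within a comparison. The fit was also run on simulated data with independent errors, which could not test how calls depend on single libraries here. Members, pathway and marker lists were chosen with earlier results of these data known. Named were all 9 members, list genes past the threshold (at most 4 per direction) and, for each member, genes among its 3 nearest profiles, without predicted models and pseudogenes; some nearest profiles are not printed. Irf3, Irf7 and Unc93b1 were named for their role after their values were seen. Other settings tried were log2(TPM + 0.1), no low-value filter, scaling by median of ratios, a replicate block, a fit of 2 groups alone, no trend, and each library left out, a lone sample then being assumed to vary as the others do.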

Additional observations from a re-analysis of the deposited data

How the results depend on the processing

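For the 9 genes in 3 comparisons under 12 alternatives, 295 of 324 values kept their direction and side of the threshold, 9 lost and 3 gained a call, and 17 changed sign, none of them a called value. With no filter on low values 444 genes were called in the wound comparison in place of 2352, and 69 in place of 1371 for RNase III against unwounded corneas; more genes were then tested. Of the 9 genes 1, Mavs, was called with the wound under no filter and 1, again Mavs, with no trend. With median-of-ratios scaling 1 of 9, Dhx58, was called for RNase III against unwounded corneas. For RNase III against wounded corneas 1 gene in all was called with a pseudocount of 0.1. Leaving out libraries gave 25 to 3242 genes and 0 to 2 members called with the wound, 0 to 1 and 0 for RNase III against wounded, and 17 to 1283 and 0 to 1 for RNase III against unwounded corneas. The fewest members, 0, came without unwounded replicate 1 or 2 or wounded replicate 1 (25, 26 and 71 genes).

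Scaling moved the all-gene wound median from -0.26 to -0.01, and the share of wound calls that were higher from 38.4% to 60.4%; for RNase III against unwounded corneas that share went from 50.8% to 60.7%. Signs changed with scaling for Tlr3 with the wound (0.091), Ddx58 in RNase III against wounded (-0.030) and Tbk1 in RNase III against unwounded corneas (0.052). Over the libraries left out, the wound difference ranged from -0.52 to 0.19 for Tlr3 and from -0.091 to 0.16 for Ticam1. For RNase III against wounded corneas it ranged from -0.034 to 0.70 for Ticam1, -0.28 to 0.46 for Ddx58, -0.28 to 0.64 for Ifih1, -1.22 to 0.40 for Dhx58, -0.052 to 0.75 for Eif2ak2 and -0.71 to 0.47 for Adar. The cause was not tested. With the replicate number as a block, 2 members were called with the wound, Dhx58 (limma adjusted p = 0.0398) and Mavs (adjusted p = 0.0331), among 2032 genes, and no member's call changed. The labels do not say that numbers pair samples, and replicate deviations correlated between groups at 0.146, 0.103 and -0.0469. TPM give no depth, so no detection limit can be set for genes listed at 0.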
